A study of Mus musculus with 8 samples.

Results

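A set of 8 genes, 7 enzymes of cholesterol synthesis and 1 sterol sensor, was followed in cultures of mouse hind limb muscle: Hmgcs1, Idi1, Fdps, Fdft1, Sqle, Lss, Cyp51 and Insig1. They were measured by every probe set, on the Affymetrix MOE430A and MOE430B arrays, whose only gene symbol is one of these 8 names. That gave 21 of 45037 probe sets, 19 of them on MOE430A and 2 on MOE430B. No receptor gene is among them. The series compared 2 ways of preparing putative muscle stem cells. In the MACS group (replicates 2 and 3), magnetic beads selected cells with Sca1, a surface protein of many tissue progenitors, and removed those with CD45, a protein of nearly all leukocytes. By flow cytometry more than 80% of the cells carried Sca1 and fewer than 1% carried CD45. The PP6 group (replicates 2 and 3) was prepared by preplating, which sorts cells by the speed of their attachment to plastic, and has no purity estimate. Both groups were primary cultures grown in F10 Ham medium with 20% fetal bovine serum and antibiotics, with muscle cells named as the contaminating cell type. No strain, age, genotype or drug is given in the sources used here, and nothing states that the numbered cultures came from separate animals, so the p-values measure the spread between these cultures, which may be technical.

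Cells make cholesterol from acetyl-CoA through mevalonate, the isoprenoids, squalene and lanosterol, and the isoprenoids also anchor small GTPases to membranes and feed the synthesis of dolichol and ubiquinone. When sterols run low in the endoplasmic reticulum, Scap carries the SREBP transcription factors to the Golgi, where the proteases encoded by Mbtps1 and Mbtps2 release a fragment that enters the nucleus and switches on the genes of the pathway. Insig1 holds Scap back when sterols are plentiful and is itself a target of SREBP. In skeletal muscle the pathway is known through statins, drugs that block the making of mevalonate and can injure muscle fibres.

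Promoter sequence is shown for the members because SREBP acts through short motifs near the gene start, usually beside sites for the factors NF-Y (CCAAT) and Sp1 (GGGCGG). RefSeq sequence of the GRCm38.p6 assembly was matched for 5 of the 8 genes, Hmgcs1, Idi1, Lss, Cyp51 and Insig1. Each line gives 150 bases, 5′ to 3′ on the gene's own strand, with matches to TCACNCCAC, CCAAT and GGGCGG, read on either strand, in capitals. For Insig1 the bases run from 250 to 101 upstream of the start, and for the others from 150 to 1 upstream.
Hmgcs1, chr13:119690201-119690350, plus strand: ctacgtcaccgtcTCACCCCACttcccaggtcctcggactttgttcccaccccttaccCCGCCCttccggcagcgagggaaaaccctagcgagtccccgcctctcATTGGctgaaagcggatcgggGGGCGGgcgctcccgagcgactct
Idi1, chr13:8885456-8885605, plus strand: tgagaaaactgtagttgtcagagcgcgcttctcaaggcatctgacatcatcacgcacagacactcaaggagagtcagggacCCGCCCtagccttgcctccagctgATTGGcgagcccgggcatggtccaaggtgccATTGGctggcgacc
Lss, chr10:76531455-76531604, plus strand: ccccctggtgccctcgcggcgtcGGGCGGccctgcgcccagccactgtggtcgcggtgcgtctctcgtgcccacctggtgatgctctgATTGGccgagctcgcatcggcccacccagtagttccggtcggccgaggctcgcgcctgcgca
Cyp51, chr5:4104698-4104847, minus strand: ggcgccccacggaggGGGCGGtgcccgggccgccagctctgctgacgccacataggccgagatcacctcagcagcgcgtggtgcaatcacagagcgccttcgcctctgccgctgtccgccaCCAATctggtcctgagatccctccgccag
Insig1, chr5:28071162-28071311, plus strand: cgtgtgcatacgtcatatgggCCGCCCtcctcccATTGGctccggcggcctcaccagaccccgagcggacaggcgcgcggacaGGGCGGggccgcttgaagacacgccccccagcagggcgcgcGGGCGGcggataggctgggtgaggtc

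Motifs were searched on both strands of windows from 250 bases before to 50 after each start. The sterol regulatory element TCACNCCAC was found in 1 of the 5 windows, that of Hmgcs1, where TCACCCCAC begins 137 bases upstream; 1.24% of all 32851 promoter windows hold it. The E-box form TCACGTGA was in 0 of 5 windows, against 0.974% of all. A CCAAT box was in 5 of 5, against 37.4%, and the GC box GGGCGG was in 5 of 5, against 35.7%. Both boxes together were in 5 of 5 windows, in 12.8% of all windows and in 10 of 16 windows (62.5%) of the other sterol synthesis genes, of which 13 have a window. None of these 3 motifs overlaps another in the printed letters. A match of letters is a description and not a binding site. Only the exact letters given were searched, so a window without a match is not shown to lack such an element.

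No tested probe set of the members differed between PP6 and MACS cultures beyond the spread between replicates. All 8 genes had at least 1 probe set bright enough to test, and 14 of the 21 probe sets were tested. The test was limma on log2 signal over all 23963 probe sets whose signal lay above their own array's median in 2 or more of the 4 cultures. At a Benjamini-Hochberg adjusted p under 0.05, 0 of the 14 passed, and so did 0 of all tested probe sets (0.0%), the smallest adjusted p of any being 0.255. At an unadjusted limma p under 0.05, 0 of the 14 passed, where 5.69% of all tested probe sets passed as higher in PP6 and 5.83% as lower. The smallest unadjusted p of a tested member was 0.251, for Idi1, with an adjusted p of 0.666. In 0 of the 14 was the difference between group means larger than the wider of the 2 gaps between replicates, a mark that 30.7% of all tested probe sets reached. With 2 cultures per group the smallest two-sided p of an exact permutation test is 33.3%, so none was used for single genes.

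With 1 probe set per gene, the log2 difference of PP6 minus MACS was above 0 for 5 of the 8 genes and below 0 for 3. Its median was 0.28, beside 0.02 over all 12278 tested genes. It was 0.18 after quantile normalization and 0.12 with the mean of all tested probe sets of each gene. The median size, sign aside, was 0.282 for the 8 genes and 0.326 for all. The biggest of the 8 was 0.493, and 32.6% of all genes had a bigger one. Centring every array on its median signal shifted the median of all genes by -0.12, to -0.11, and the median of the 8 genes to 0.16. Relative to all genes the 8 then stood at 0.26, against 0.27 in the scaling used here. The 95% intervals differed in width between genes. That of Fdps was the widest and reached 3.3-fold higher in PP6, and that of Sqle reached 2.07-fold lower, while those of Hmgcs1 and Insig1 ran from 0.587- to 1.47-fold and from 0.616- to 1.51-fold. Because the samples are bulk RNA, fewer cells of a type and less RNA per cell cannot be told apart in any of these values.

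**Figure D1:**
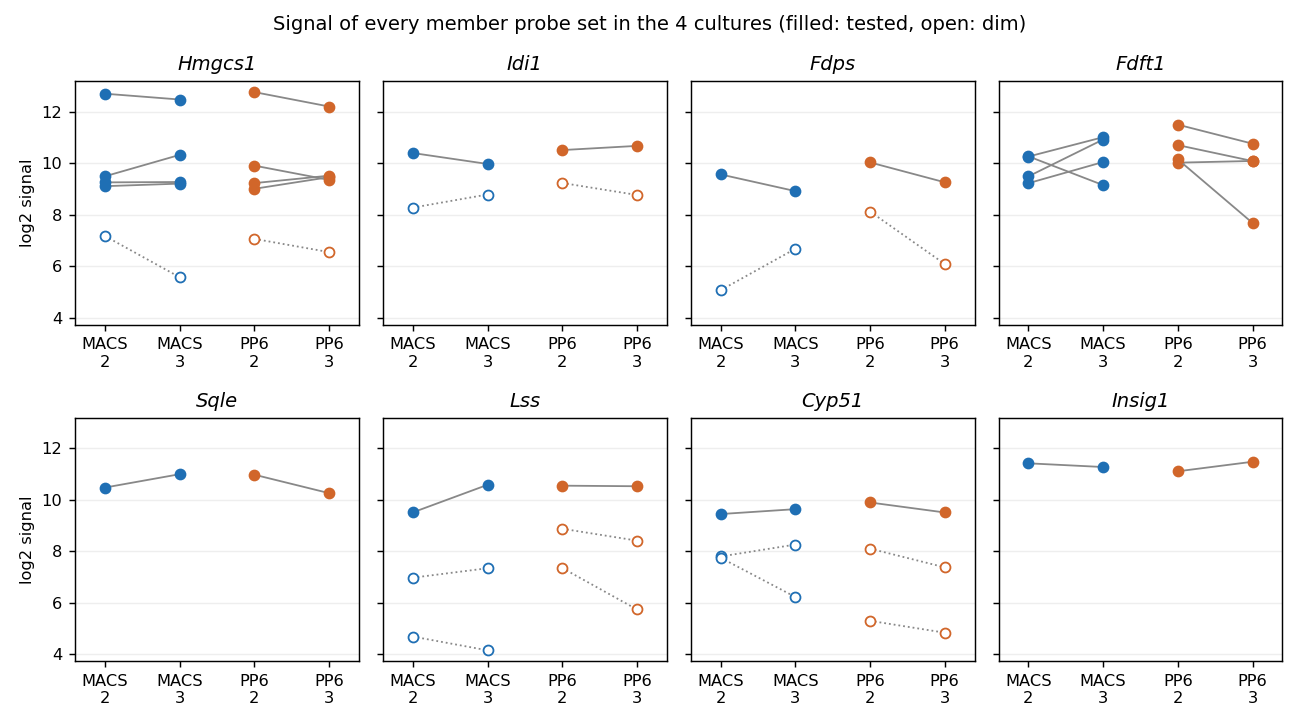
Log2 signal (vertical axis) of each of the 21 probe sets in the MACS and PP6 cultures (horizontal axis, replicates 2 and 3), in 1 panel per gene. Filled points are the 14 tested probe sets and open points the 7 too dim to be tested; lines join the 2 replicates of a group, and heights cannot be compared between probe sets. For each of the 14 tested probe sets the difference between group means is no larger than the wider gap between replicates.

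Hmgcs1 encodes the cytosolic HMG-CoA synthase, which makes the precursor of mevalonate, and has 5 probe sets. The one used for the gene, 1433443_a_at, read 12.70 and 12.47 log2 units in MACS and 12.76 and 12.20 in PP6. Both the highest and the lowest of these values came from PP6 cultures. The difference was -0.11 ± 0.27 (SE, n = 2 against 2; limma adjusted p = 0.908), with a 95% interval from -0.77 to 0.56. The gene has 3 other tested probe sets. Probe set 1433444_at read 9.26 and 9.27 in MACS and 9.01 and 9.46 in PP6, again with the MACS pair inside the PP6 pair. For 1433445_x_at, whose suffix marks probes that may also bind other transcripts, the values were 9.49 and 10.32 in MACS and 9.23 and 9.52 in PP6, a difference of -0.54 ± 0.47. The fourth, 1433446_at, read 9.11 and 9.21 in MACS and 9.91 and 9.35 in PP6. Here the groups did not overlap, with PP6 higher by 0.47 ± 0.48 (adjusted p = 0.746). The fifth, 1441536_at on MOE430B, was too dim to be tested, at 7.17 and 5.57 in MACS and 7.06 and 6.55 in PP6. The probe sets of Hmgcs1 thus ran from -0.54 to 0.47 and did not share a direction.

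Idi1 encodes the isomerase that sets the balance between the isoprenoid units isopentenyl and dimethylallyl diphosphate. Its tested probe set 1451122_at read 10.40 and 9.97 in MACS and 10.51 and 10.67 in PP6. Both PP6 cultures lay above both MACS cultures, the upper MACS value falling just short of the lower PP6 value. The difference was 0.41 ± 0.32 (adjusted p = 0.666), with an interval from -0.38 to 1.20, and ran from 0.20 to 0.62 when 1 culture was left out (0.20 without MACS replicate 3, 0.62 without MACS replicate 2). The second probe set, 1423804_a_at, was dim, at 8.27 and 8.78 in MACS and 9.23 and 8.77 in PP6. Its MACS replicate 3 and PP6 replicate 3 were nearly equal.

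Fdps encodes farnesyl diphosphate synthase, which joins the isoprenoid units into the last product shared by sterols and prenylated proteins. Probe set 1423418_at read 9.56 and 8.92 in MACS and 10.03 and 9.26 in PP6. In both groups replicate 2 was the higher, and the groups overlapped. The difference was 0.40 ± 0.53 (adjusted p = 0.808), from -0.92 to 1.72. It was 0.02 without PP6 replicate 2 and 0.08 without MACS replicate 3, and 0.79 and 0.73 without the other culture of each group. The dim probe set 1438150_at ranged widely between replicates, with 5.07 and 6.68 in MACS and 8.12 and 6.08 in PP6. Fitted without the filter on dim probe sets, its difference was 1.23, with a 95% interval from -1.42 to 3.88.

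Fdft1 encodes squalene synthase, the first enzyme committed to sterols, and is the one gene here with 4 probe sets that were all tested. Probe set 1438322_x_at, whose suffix marks probes that may also bind other transcripts, was used for the gene. It read 10.26 and 11.01 in MACS and 11.50 and 10.76 in PP6. The groups overlapped, as MACS replicate 3 lay above PP6 replicate 3. Its difference was 0.49 ± 0.40 (adjusted p = 0.680), from -0.51 to 1.49. Leaving out replicate 2 of either group gave 0.12, leaving out replicate 3 gave 0.87 for MACS and 0.86 for PP6, and the mean over the 4 probe sets of the gene was 0.08. The values of 1438918_at were 10.27 and 9.15 in MACS and 10.02 and 10.09 in PP6. Those of 1448130_at were 9.49 and 10.92 in MACS and 10.70 and 10.08 in PP6. In both, 1 MACS culture lay above the PP6 pair and the other below it. The differences of these probe sets, which lack that suffix, were 0.35 ± 0.48 and 0.19 ± 0.55. Probe set 1438919_x_at, with the same suffix as the one used, read 9.22 and 10.05 in MACS and 10.15 and 7.68 in PP6. Its PP6 replicate 3 stood 2.47 below replicate 2, the widest gap between PP6 replicates among the members, and its difference of -0.72 ± 0.91 had the sign opposite to the other 3 probe sets of the gene.

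Sqle encodes squalene epoxidase, which adds the first oxygen of the sterol and is a flux-controlling step. Its only probe set, 1415993_at, read 10.48 and 10.998 in MACS and 10.98 and 10.26 in PP6. Each group held 1 higher and 1 lower culture at nearly the same levels. The difference was -0.12 ± 0.37 (adjusted p = 0.930), from -1.05 to 0.81.

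Lss encodes lanosterol synthase, which closes the rings. Probe set 1420013_s_at, whose suffix marks probes shared by more than 1 transcript, read 9.51 and 10.59 in MACS and 10.55 and 10.53 in PP6. MACS replicate 2 stood apart from the other 3 cultures, which lay within a narrow band. The difference was 0.49 ± 0.44 (adjusted p = 0.706), from -0.59 to 1.57; without MACS replicate 2 it was -0.04, and without MACS replicate 3 it was 1.03. Both other probe sets of Lss were dim in every culture, and in both the groups did not overlap. Probe set 1420014_at read 6.98 and 7.35 in MACS and 8.88 and 8.42 in PP6, a difference of 1.49 ± 0.66. Probe set 1426913_at read 4.69 and 4.16 in MACS and 7.36 and 5.74 in PP6, a difference of 2.12 ± 0.86, the largest of the 21. In a fit with no filter on dim signals their limma p-values were 0.0676 and 0.0509, with adjusted p-values of 0.584 and 0.555. All of their values lay under the median of their own array, whose log2 ran from 9.14 to 9.30, and the deposited tables used here hold no detection calls to say whether such signals exceed background.

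Cyp51 encodes the lanosterol demethylase, a cytochrome P450. Probe set 1450646_at read 9.45 and 9.64 in MACS and 9.90 and 9.51 in PP6. The lower PP6 culture lay between the 2 MACS cultures. The difference was 0.16 ± 0.42 (adjusted p = 0.911), from -0.88 to 1.20. Probe set 1422533_at was dim, at 7.80 and 8.27 in MACS and 8.11 and 7.38 in PP6, and its groups overlapped. Probe set 1422534_at, also dim, read 7.75 and 6.23 in MACS and 5.31 and 4.84 in PP6. It was the only member probe set with both PP6 cultures under both MACS cultures, at -1.92 ± 0.86 (adjusted p = 0.591 in the limma fit with no filter). The probe sets of Cyp51 disagreed in sign.

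Insig1 encodes the sterol sensor that retains Scap in the endoplasmic reticulum and is itself switched on by SREBP. Its single probe set, 1454671_at on MOE430B, read 11.42 and 11.28 in MACS and 11.11 and 11.48 in PP6. The MACS pair lay inside the PP6 pair. At -0.05 ± 0.26 (adjusted p = 0.958), with an interval from -0.70 to 0.59, it had the narrowest interval of the 8 genes.

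**Figure D2:**
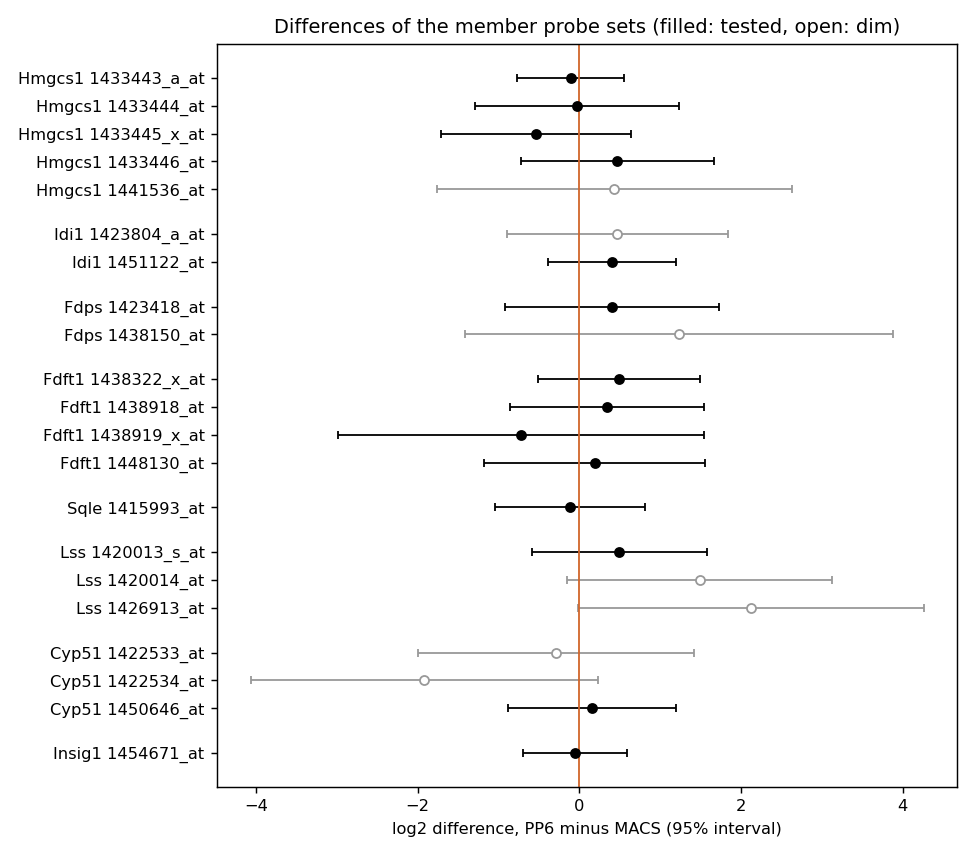
Log2 difference of PP6 minus MACS (horizontal axis) for each of the 21 probe sets (vertical axis), as point and 95% interval from limma. Filled points were tested and open points were too dim, with intervals from the fit without that filter; every interval includes 0, and the widest is that of the dim Fdps probe set.

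Counted over all 21 probe sets, both PP6 cultures lay above both MACS cultures in 4, which were Hmgcs1 1433446_at, Idi1 1451122_at and the dim pair of Lss. That happened in 23.0% of all 45037 probe sets. Both PP6 cultures lay below in 1 of the 21, the dim Cyp51 1422534_at, against 17.6% of all. The other 16 overlapped. Among the 14 tested probe sets, 2 were higher without overlap, 0 lower and 12 overlapped. The shares over all 21 were near the background or under it. No such background was taken over the tested probe sets alone. Over the 14 tested probe sets the median difference was 0.17, with 8 above 0 and 6 below. With the 7 dim ones it was 0.35.

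Gaps between replicates were set beside those of all probe sets, as a description with no test. The median gap between the 2 MACS cultures, sign aside, was 0.583 for the 14 tested probe sets and 0.376 for all tested. Between the 2 PP6 cultures it was 0.503, against 0.337. Within PP6 the gaps leaned to 1 side: replicate 2 lay above replicate 3 in 16 of the 21 probe sets, 9 of the 14 tested and 6 of the 8 genes, where the share was 50% over all stacked probe sets and 51.6% over all tested. Idi1 and Insig1 were the 2 genes where it did not. The median of PP6 replicate 2 minus replicate 3 was 0.47 over the tested members and 0.02 over all tested probe sets. Within MACS replicate 2 lay above replicate 3 in 8 of 21 and in 4 of the 8 genes, with a median of -0.14 over the tested members. With each gene centred on its own mean, the median of the 8 genes was -0.08 and -0.01 in the MACS cultures, 0.27 in PP6 replicate 2 and -0.12 in PP6 replicate 3. By these medians PP6 replicate 2 stood above the rest, and PP6 replicate 3 stood beside the MACS cultures. Single genes did not all follow. PP6 replicate 2 was the highest culture for Hmgcs1, Fdps, Fdft1 and Cyp51. For Sqle and Lss MACS replicate 3 was slightly higher. Idi1 and Insig1 were highest in PP6 replicate 3, and Insig1 was lowest in PP6 replicate 2. Without PP6 replicate 2 the median difference of the 8 genes was 0.07, and without PP6 replicate 3 it was 0.34. It was 0.04 without MACS replicate 2 and 0.17 without MACS replicate 3, so each culture mattered to it. No test is possible on 1 culture.

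**Figure D3:**
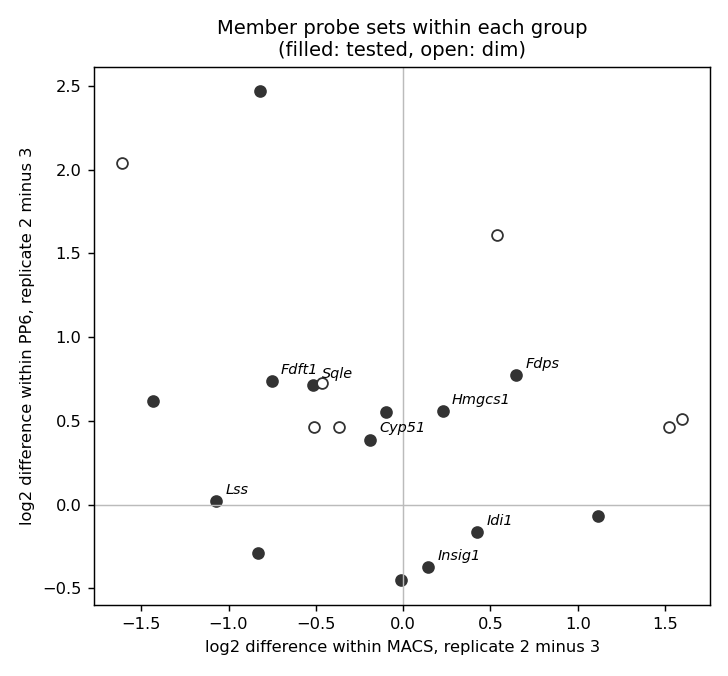
Difference of replicate 2 minus replicate 3 in log2 units, within MACS (horizontal axis) and within PP6 (vertical axis), for the 21 probe sets, with the probe set used for each gene labelled. Of the points, 16 lie above 0 on the PP6 axis and 8 lie right of 0 on the MACS axis.

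Markers of other cells also differed between the PP6 replicates. The summed linear signal of 8 leukocyte markers was 6662 and 6940 in MACS, 14477 in PP6 replicate 2 and 40150 in PP6 replicate 3, and that of 6 neutrophil markers was 3505, 4979, 100917 and 349969 in the same order. The sum of 8 markers of differentiated muscle was 4520 and 5079 in MACS and 23998 and 56106 in PP6. All 3 sums were highest in PP6 replicate 3, the culture where most member probe sets were lower than in PP6 replicate 2. Of the 8 differentiated muscle genes 7 were higher in PP6 replicate 3 than in replicate 2. Ckm was not, at 11.41 log2 units against 11.98. The muscle precursor sum of 5 genes spanned 10663 to 13820 over the 4 cultures, and its genes did not go together. Myod1, a myoblast transcription factor, read 12.92 and 12.73 log2 units in MACS and 12.93 and 12.34 in PP6. Des, the muscle intermediate filament gene, read 10.11 and 10.43 in MACS and 11.42 and 11.65 in PP6, and Itga7, an integrin subunit of muscle, 10.05 and 10.53 against 11.22 and 10.67, both without overlap and higher in PP6. Pax7 and Myf5, transcription factors of satellite cells and myoblasts, overlapped between the groups, with lower means in PP6. Fibroblast markers (6 genes) summed to 60761 and 109032 in MACS and 177690 to 186713 in PP6. Of these, Col1a1, Col1a2, Col3a1 and Dcn were higher in PP6 without overlap, while Lum and Pdgfra overlapped. Endothelial markers (5 genes) summed to 21753 and 23068 against 14919 and 16903, and adipocyte markers (5 of 6 on the arrays) to 15922 and 27061 against 60184 and 72552. Proliferation markers (5 of 6) summed to 28673 and 33682 against 18132 and 18907, with Cdk1 overlapping between the groups. RNA concentration was also lowest in PP6 replicate 3, at 15 ng/ul, against 35 in PP6 replicate 2 and 55 and 65 in MACS. The RNA came from 1980000 and 2040000 cells in MACS and from 6500000 and 6700000 in PP6, so both cell number and RNA concentration divided the groups without overlap. No marker can be called absent without detection calls, and the part of these cells, of cell number or of RNA amount in the members' values was not tested.

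Among the other steps of sterol synthesis, most differences were also above 0 and none passed the threshold. Of 15 listed genes 12 were on the arrays and 10 were tested, and 0 of the 10 had an unadjusted limma p under 0.05 in either direction, against 5.81% of all genes higher and 5.44% lower. The difference was above 0 for 8 and below 0 for 2, with a median of 0.41, where 51.4% of all genes were above 0. Nsdhl, a sterol dehydrogenase, had close replicates, at 10.67 and 10.56 in MACS and 11.15 and 11.07 in PP6 (0.49 ± 0.26, adjusted p = 0.536). Both PP6 cultures lay above both MACS cultures. Ebp, a sterol isomerase, read 11.55 and 11.66 in MACS and 12.02 and 11.76 in PP6, also without overlap. Tm7sf2, a sterol reductase, differed by 0.62 ± 0.46, and Dhcr7, the reductase that makes cholesterol from its last precursor, by 0.63 ± 0.56. Early in the pathway, the mevalonate kinase gene Mvk differed by 0.33 ± 0.55 and the decarboxylase gene Mvd by 0.48 ± 0.44. The other tested probe set of Mvd differed by 0.04 ± 0.45. The reductase gene Hsd17b7 differed by 0.48 ± 0.37 on the probe set used and by -0.74 to 0.22 on 3 others. Ggps1, which makes geranylgeranyl diphosphate, differed by 0.26 ± 0.41, and by -0.33 ± 0.37 and 0.35 ± 0.50 on its other tested probe sets. Sc5d, a sterol desaturase, differed by -0.07 ± 0.43. Lbr, a protein of the inner nuclear membrane that is also a sterol reductase, went the other way. It read 10.90 and 10.69 in MACS and 9.82 and 10.24 in PP6, with both PP6 cultures lower (-0.77 ± 0.32, adjusted p = 0.448). Pmvk and Msmo1 were too dim to be tested. In the fit with no filter Pmvk read 8.47 and 8.22 in MACS and 9.27 and 9.76 in PP6. Its difference was 1.18 ± 0.51 (limma adjusted p = 0.579), and those of Msmo1 were 1.48 ± 0.91 and 0.45 ± 0.61. The dim probe sets of Sc5d went the other way, at -1.11 ± 1.23 and -0.82 ± 0.43.

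In the machinery of sterol sensing most differences were below 0. Of 12 listed genes 11 were on the arrays and 10 were tested, with 0 at an unadjusted limma p under 0.05, 3 differences above 0 and 7 below, and a median of -0.13. After quantile normalization 5 were above 0 and 5 below. Srebf1 and Srebf2, which encode the SREBP factors, differed by -0.01 ± 0.28 and -0.18 ± 0.39, and Scap by -0.46 ± 0.37. The other tested probe set of Srebf2, 1426744_at, differed by -1.255 ± 0.861, with its lowest value, 7.247, in PP6 replicate 3. Both its PP6 values lay under their array medians, so it passed the filter only through MACS. Mbtps2, which encodes the protease that makes the second cut in SREBP, read 13.25 and 13.61 in MACS and 12.98 and 12.78 in PP6 (-0.56 ± 0.23, adjusted p = 0.437). Both PP6 cultures were lower. Mbtps1, for the protease of the first cut, differed by -0.38 ± 0.29, and by -0.98 ± 1.37 on its other tested probe set. Insig2, the second Insig gene, read 10.34 and 10.86 in MACS and 11.35 and 10.995 in PP6 (0.57 ± 0.31, adjusted p = 0.546). Its other 2 tested probe sets differed by 0.53 each. The mean of Insig2 was thus higher in PP6 on all 3 tested probe sets, none of them past the threshold, and whether it differed from Insig1 was not tested. Ube2g2, a ubiquitin-conjugating enzyme of the endoplasmic reticulum, differed by 0.47 ± 0.21 (adjusted p = 0.470).

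**Figure D4:**
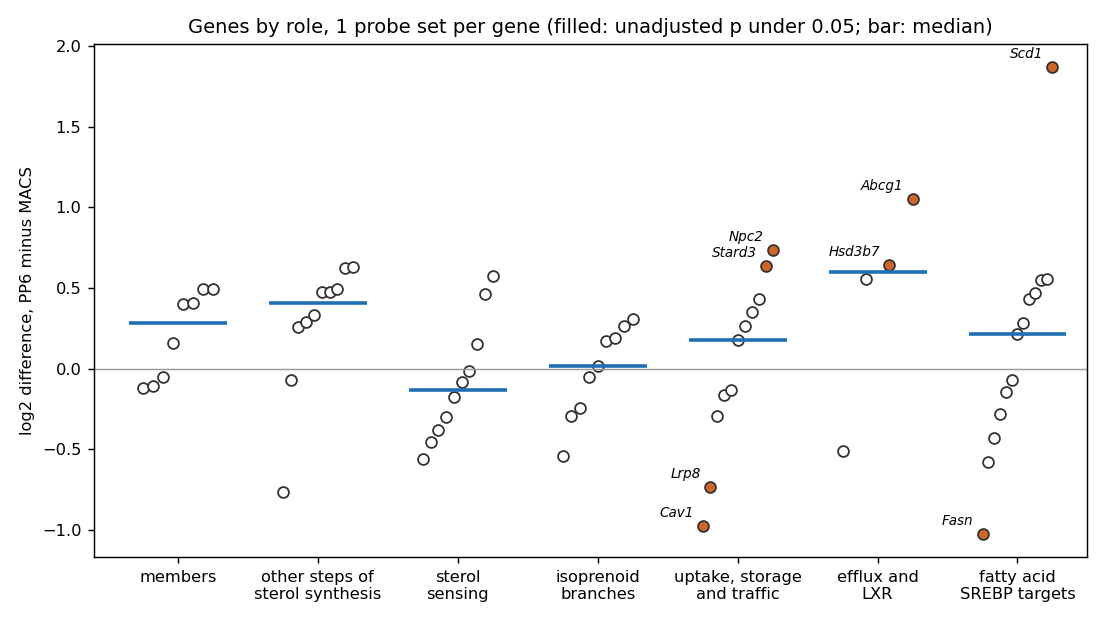
Log2 difference of PP6 minus MACS (vertical axis) for 1 probe set per gene, by role (horizontal axis); each point is a gene, bars mark medians, and filled, named points have an unadjusted limma p under 0.05. The 8 members lie between -0.12 and 0.49, and the medians run from -0.13 for sterol sensing to 0.60 for efflux.

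In the lists next to the pathway some genes had small unadjusted p-values, and 0 passed the adjusted threshold. The lists were chosen with earlier results of these data known, so their shares beside those of all genes are a description and not a test. Of 15 listed genes of uptake, storage and traffic 11 were on the arrays and tested, with 2 higher and 2 lower at an unadjusted limma p under 0.05 (18.2% each, against 5.81% and 5.44% of all genes) and a median difference of 0.18. Cav1, the coat protein of caveolae, read 13.54 and 13.62 in MACS and 12.79 and 12.43 in PP6 (-0.97 ± 0.22, adjusted p = 0.314). Both PP6 cultures lay well below both MACS cultures. Npc2, which hands cholesterol out of lysosomes, read 15.54 and 15.53 in MACS and 16.23 and 16.31 in PP6 on the probe set used (0.74 ± 0.20, adjusted p = 0.334). Its MOE430B probe set 1455768_at differed by -0.14 ± 0.23. Lrp8, a lipoprotein receptor that binds apolipoprotein E, differed by -0.74 ± 0.23 (adjusted p = 0.367). Its second MOE430B probe set, 1442347_at, differed by -2.66 ± 0.42 (limma adjusted p = 0.258). That probe set read 11.09 and 11.16 in MACS and 8.135 and 8.807 in PP6. Both PP6 values lay under the medians of their arrays, 9.73 and 9.79, so it passed the filter only through MACS. Stard3, a late endosome protein that binds cholesterol, differed by 0.63 ± 0.22 (adjusted p = 0.393).

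Of 9 listed genes of cholesterol efflux and oxysterols 8 were on the arrays and 4 were tested, 2 of them higher in PP6 with an unadjusted p under 0.05 and 0 lower, where 5.81% of all genes were higher and 5.44% lower. Abcg1, an efflux transporter, read 9.79 and 10.26 in MACS and 10.77 and 11.39 in PP6 (1.05 ± 0.36, adjusted p = 0.393). Unlike most members, Abcg1 was highest in PP6 replicate 3. Hsd3b7, an enzyme of bile acid synthesis, differed by 0.64 ± 0.25 (adjusted p = 0.423). Abca1, the transporter that loads cholesterol onto apolipoproteins, differed by 0.56 ± 0.25 (adjusted p = 0.475), and Ch25h, which makes an oxysterol, by -0.51 ± 0.30 (adjusted p = 0.577).

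Of 12 listed genes of the isoprenoid branches 11 were on the arrays and 9 were tested, with 0 at an unadjusted p under 0.05 and a median of 0.02, which was -0.10 after centring on the median. Rabggtb, a subunit of the enzyme that prenylates Rab proteins, differed by -0.54 ± 0.23 (adjusted p = 0.450). The smallest p-values after it belonged to Zmpste24, the prelamin protease, at -0.24 ± 0.19, to Nus1 of dolichol synthesis at -0.30 ± 0.27, and to Dhdds, its partner subunit, at 0.31 ± 0.33. Another probe set of Nus1, 1440478_at on MOE430B, differed by -1.45 ± 0.37 (limma adjusted p = 0.327). It read 10.46 and 10.62 in MACS and 9.22 and 8.96 in PP6. Both PP6 values lay under their array medians, so it passed the filter only through MACS. All 13 fatty acid genes that SREBP also targets were tested, with 1 past an unadjusted p of 0.05 on each side (7.69%, against 5.81% of all genes higher and 5.44% lower) and a median of 0.21. Scd1, a fatty acid desaturase, read 11.09 and 12.12 in MACS and 13.82 and 13.13 in PP6 (1.87 ± 0.42, adjusted p = 0.314), and its second probe set differed by 0.20 ± 0.44. Fasn, the fatty acid synthase, read 11.40 and 10.41 in MACS and 9.88 and 9.89 in PP6 (-1.03 ± 0.41, adjusted p = 0.433). These 2 genes lay on opposite sides. Elovl6, an elongase, differed by -0.58 ± 0.28 and Scd2, a second desaturase, by 0.44 ± 0.24. On MOE430B, probe set 1446315_at of Acly differed by 1.30 ± 0.38 (limma adjusted p = 0.346). The other tested probe sets of Acly ran from -0.48 to 0.21. Probe set 1446542_at of Acss2 differed by -1.63 ± 0.55 (limma adjusted p = 0.388), where the probe set used for Acss2 differed by 0.47 ± 0.31. Signals of 1446542_at were 10.44 and 10.51 in MACS and 8.185 and 9.50 in PP6. Both PP6 values lay under their array medians, so it too passed the filter only through MACS. The summed signal of adipocyte markers, given above, was higher in both PP6 cultures, as Scd1 was, and 2 of its 5 genes lay without overlap on that side. These were Lpl, the lipoprotein lipase gene, at 12.98 and 13.09 in MACS and 15.51 and 15.21 in PP6, and Fabp4, a fatty acid carrier, at 14.10 and 12.66 against 14.59 and 14.39. Adipoq, Cebpa and Pparg overlapped between the groups, and the mean of Pparg was lower in PP6. The part of adipocytes in these values was not tested. Genes of these lists with no probe set of a single symbol were not analysed here.

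Genes were also ranked by how near their 4 centred values lay to the mean centred profile of the members, which was -0.17 and -0.04 in MACS and 0.27 and -0.06 in PP6. The nearest 5 were Cdh6, a cadherin, at a root mean square distance of 0.0203 log2 units over the 4 cultures, then Phpt1, a phosphohistidine phosphatase, at 0.0207, Ahsa2, a cochaperone homologue, at 0.0245, Cbx6, a Polycomb protein, at 0.0246 and Bcr, a GTPase regulator, at 0.0267. The median distance of all genes was 0.335, and 309 genes (2.52%) lay within 0.1. None of the 5 belongs to the lists above.

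Array quality bears on all of these values, and whether it bears on them equally was not tested. The 8 arrays had 2% trimmed means of 1500.2 to 1500.65, as deposited. Across the tested probe sets the MACS cultures correlated at r = 0.858, the PP6 cultures at 0.839 and pairs from different groups at 0.783 to 0.835, with probe sets as points, which are not independent replicates. Per array type the 4 arrays shared 1 chip lot, 1 hybridisation day, 1 scan day and 1 scanner station, per the scanner setting files. Batches of culture, RNA extraction or labelling are not given in the sources used here, and their part was not tested. Each culture had its own fluidics module, of which there were 4, so module and culture cannot be told apart.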

How the data were processed

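Signal intensity was deposited by the authors as 1 linear value per probe set and array, made with MAS5 per the submitters' processing notes, with no version stated there. Trimmed means were alike, so arrays had been scaled before deposit. The scanner setting files gave only lots, days, stations and modules.

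Probe sets were named from the platform annotation, with symbols updated through RefSeq (GRCm38.p6): 20393 of 22690 on MOE430A and 14674 of 22575 on MOE430B carried 1 symbol, 691 and 245 several and 1606 and 7656 none. Probe sets with several symbols named no gene.

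Signals were rescaled to the mean 2% trimmed mean of their array type and log2-transformed with no pseudocount. Both types were stacked, without 64 control probe sets each; 100 shared probe sets kept their MOE430A value. The groups were compared with limma 3.58.1 under R 4.3.3 (lmFit, eBayes with intensity trend; 2 residual degrees of freedom, 5.67 after moderation), two-sided, with Benjamini-Hochberg adjustment over all tested probe sets. A gene took its tested MOE430A probe set before MOE430B, then the highest mean signal. Symbols were matched in RefSeq promoter windows for 5 of the 8 members.

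Named are every member, the measured sterol synthesis genes, up to 4 genes of smallest p per further list, the 5 nearest profiles (clone-like symbols skipped) and marker genes; other sensing genes and second probe sets were named after their values were seen. Members and lists were chosen with earlier results of these data known. The main fit did not pair samples by replicate number. The deviations of same-numbered cultures correlated at -0.0335 across tested probe sets. That value cannot show whether such cultures shared an animal or a preparation. The procedure was tested on simulated data.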

Additional observations from a re-analysis of the deposited data

How the results depend on the processing

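Among the members 0 probe sets had an unadjusted limma p under 0.05 in any of the 14 alternatives that test them (the mean over probe sets gives no test), and the smallest adjusted p of a member gene in any of them was 0.417 (Lss without MACS replicate 3). The median difference of the 8 genes, 0.282, became -0.079 with the filter at the 75th percentile, which left 4 of them; it ran from 0.043 to 0.34 when 1 culture was left out, the low end being without MACS replicate 2. Of 116 single-gene values 8 changed sign, all on leaving out 1 culture: Cyp51 ran from -0.034 to 0.354, Hmgcs1 from -0.386 to 0.174, Insig1 from -0.238 to 0.133, Lss from -0.044 to 1.027 and Sqle from -0.478 to 0.239. Over all probe sets the adjusted count of 0 became 71 with each array type fitted alone, 5 with the filter at the 75th percentile, 23 with signals raised to the array median and 2 with the replicate block, which changed no call among the members, and 0 to 1 without 1 culture (1 without PP6 replicate 2). The unadjusted count of 2760 became 1744 with the stricter filter and 1782 to 2929 without 1 culture (1782 without PP6 replicate 3); median centring moved its split from 1364 higher and 1396 lower to 948 and 1983. The cause of these shifts was not tested, beyond the fewer probe sets of the stricter filter. Pseudocounts were 128.3 and 200.9. The 2 cultures per group and dim signals with no detection calls limit the precision.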
